A study of Brassica rapa with 6 samples.

Results

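Small RNAs named miR390 or miR391 were examined in the petiole, the thick stalk that carries the leaf blade, and in the leaf of wild-type Chinese cabbage (Brassica rapa) grown in a greenhouse. They were found by name: all entries whose name holds miR390 or miR391 with no further digit were taken, and entries of the same sequence were counted once. This gave 8 sequences of 1011 in the table, 6 named miR390 and 2 named miR391. Each tissue had 3 small RNA libraries, and neither plant age nor whether the libraries came from separate plants is given in the labels. The 2 families were selected on measured values, the petiole and leaf levels of their main forms in these same 6 libraries, so the tissue differences of the 8 sequences are given as descriptions, and test calls on them only as counts beside the share called over the whole table. The table holds small RNAs only, so the tissue labels could not be checked against tissue marker genes.

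miR390 is among the most conserved plant miRNAs. Bound to the Argonaute protein AGO7, it recognises TAS3 transcripts, which are then copied into double-stranded RNA by RDR6 and cut by DCL4 into trans-acting siRNAs known as tasiRNAs. In Arabidopsis these tasiRNAs repress the auxin response factors ARF2, ARF3 and ARF4, and the module is known for its part in leaf polarity, the juvenile-to-adult transition and lateral root growth. miR391 is a relative of miR390 by sequence, known from Brassicaceae, and its targets are less well established. A miRNA is cut from a hairpin precursor as a duplex of a 5p and a 3p strand; for miR390 the 5p strand is the one that guides AGO7.

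The 4 main forms are shown first because the comparison of the families rests on them. They are written 5′ to 3′ as in the table, with T for U, and the capitals mark the seed (bases 2 to 8).
bra-miR390-5p: aAGCTCAGgagggatagcgcc
bra-miR390-3p: cGCTGTCCatcctgagtttca
bra-miR391-5p: tTCGCAGGagagatagcgcca
bra-miR391-3p: aCGGTATCtctcctacgtagc
All 4 are 21 nt long. bra-miR390-5p starts with A, the first base that AGO7 is known to favour in Arabidopsis, while bra-miR391-5p starts with T. The strand bra-miR390-3p starts with C and bra-miR391-3p with A. The 2 5p forms share their 3′ parts: the run of 9 bases at positions 13 to 21 of bra-miR390-5p stands at positions 12 to 20 of bra-miR391-5p. With bra-miR391-5p moved by 1 base, 16 of the 20 overlapping bases matched. No seed was shared between any of the 4 main forms. The 3p forms were less alike, with an edit distance of 10 (the number of single-base changes, gains or losses between them) against 6 for the 5p forms.

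In each family the 2 strands could be paired as a duplex. For miR390, folding of the 2 strands gave 18 base pairs and an energy of -29.1 kcal/mol at 37 °C, with 2 unpaired bases left at each 3′ end, the form that a DCL1 cut is known to leave. For miR391 the prediction had 14 pairs and -21.9 kcal/mol, and here too each 3′ end stood 2 bases past the 5′ end of the other strand. Strands paired across the families gave 16 pairs and -20.1 kcal/mol for bra-miR390-5p with bra-miR391-3p, and 12 pairs and -19.5 kcal/mol for bra-miR391-5p with bra-miR390-3p, so the pair count and energy of miR391 hardly set its own strands apart from these. The RefSeq annotation of Brassica rapa (assembly CAAS_Brap_v3.01) lists 1 gene named MIR390 and 1 named MIR391, on different chromosomes, with precursors of 105 and 104 bases. The sources used here do not name the genome build behind the deposited table, so no positions are printed.

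The other 4 sequences named miR390 were rare forms, shown to let their differences from the main forms be seen.
gma-miR390b-5p: aAGCTCAGgagggatagcacc
rco-miR390a_R+2: aAGCTCAGgagggatagcgccca
aly-miR390b-3p_R+2_2ss5AG19CT: cGCTGTCCatcctgagtttcaca
bna-MIR390c-p3_1ss4TC: cGCCATCCatcctgagttcc
The form gma-miR390b-5p differs from bra-miR390-5p by G19A, counted from 1 at the 5′ end, and keeps its seed. Both 23 nt forms are a main form with CA added at the 3′ end, rco-miR390a_R+2 of the 5p strand and aly-miR390b-3p_R+2_2ss5AG19CT of the 3p strand. Without a genome it was not tested whether these 2 added bases are encoded in the precursor. Among the 23 sequences of the table whose names hold R+2, 10 ended in CA. The 20 nt form bna-MIR390c-p3_1ss4TC differs from bra-miR390-3p by T4C, G5A and T19C over its length and so has a seed of its own. With bra-miR390-5p it was predicted to form 16 pairs, with 2 bases of overhang on the 5p strand and 1 on its own.

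The families stood in opposite directions between the tissues. The summed miR390 normalized count was 19508, 18988 and 20068 in petiole, against 5110, 4934 and 4690 in leaf, 3.97-fold higher in petiole by the means. The miR391 sum was 4.73, 9.59 and 10.9 in petiole, against 557, 465 and 444 in leaf, 58.2-fold higher in leaf. In petiole this sum is bra-miR391-3p alone, at 5 to 12 reads per library as estimated below. The fold therefore takes bra-miR391-5p, listed at 0 in petiole, as absent there, and for bra-miR391-3p by itself it is 48.1. The petiole and leaf libraries did not overlap for either sum. The miR390 sum was 1849 to 4127 times the miR391 sum in the petiole libraries and 9.17 to 10.6 times in the leaf libraries. The petiole ratios rest on the same few reads of bra-miR391-3p. These tissues are mixtures of cell types, and a change in the share of cells that make a miRNA cannot be told apart from a change in its level per cell.

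**Figure D1:**
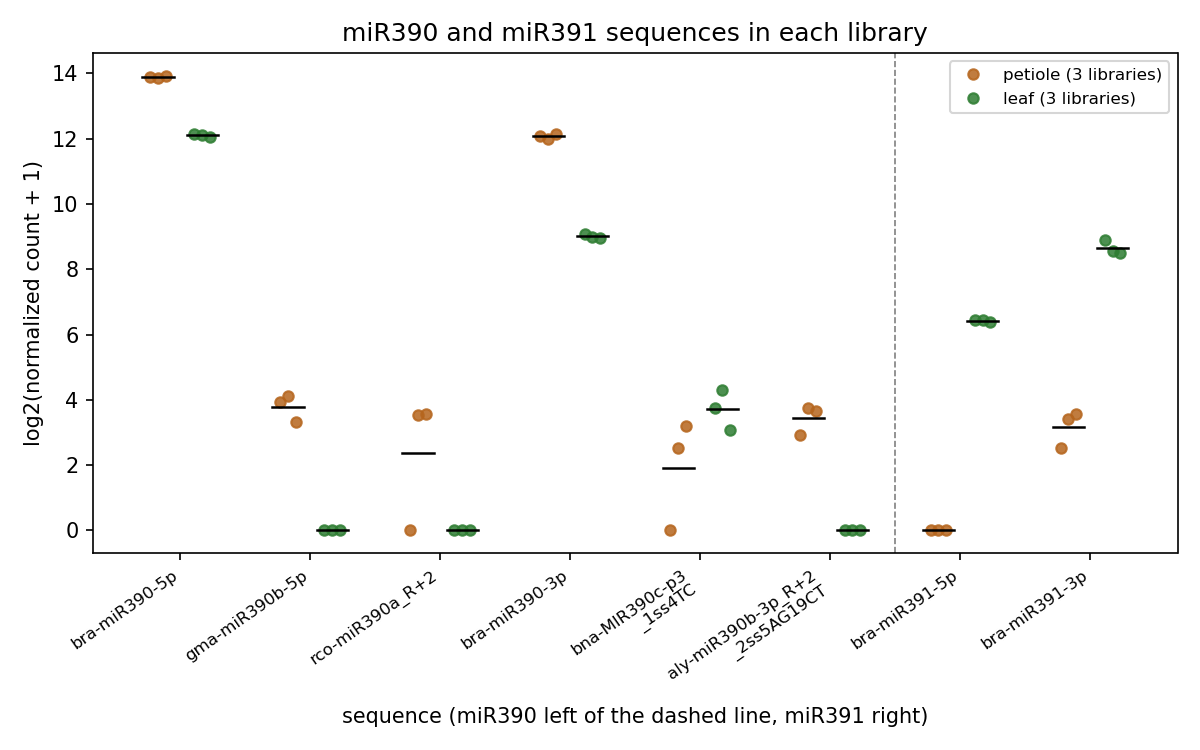
Level of each of the 8 sequences as log2(normalized count + 1) on the vertical axis, with 3 points per tissue, 1 for each library, and a bar at their mean. Both main miR390 forms lie higher in petiole than in leaf, both miR391 forms lie lower, and 3 rare miR390 forms are listed at 0 in leaf.

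The guide strand bra-miR390-5p had 15120, 14865 and 15549 normalized counts in petiole, against 4555, 4409 and 4191 in leaf. All petiole values were above all leaf values, and the means differed 3.46-fold. It ranked 4 or 5 by abundance in the petiole libraries, against 25 or 26 in the leaf libraries. It made up 3.31% to 3.63% of the summed count in petiole, against 0.542% to 0.575% in leaf. Its replicates were close, with a coefficient of variation of 2.28% in petiole and 4.18% in leaf. The median was 9.04% in petiole and 9.32% in leaf among the 186 sequences with a mean count of at least 50. Most of these were less abundant than bra-miR390-5p, so the comparison does not set it apart from sequences of like abundance.

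The opposite strand bra-miR390-3p had 4367, 4078 and 4479 normalized counts in petiole, against 543, 507 and 492 in leaf. Its tissues did not overlap either, and the means differed 8.38-fold, more than those of the 5p strand. It ranked between 19 and 22 in the petiole libraries and between 70 and 74 in the leaf libraries. On the log2(value + 1) scale the petiole minus leaf difference was 3.07 ± 0.06 for bra-miR390-3p and 1.79 ± 0.05 for bra-miR390-5p (n = 3 libraries per tissue). The ± values are SEs from the limma fit, moderated over all tested sequences. Both strands were read in the same libraries, so these SEs do not measure the error of the gap between the strands.

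For miR391 both strands were higher in leaf. bra-miR391-3p had 4.73, 9.59 and 10.9 normalized counts in petiole, against 471, 379 and 361 in leaf. With the smallest regular step between low values taken as 1 read, the petiole values stood for 5, 10 and 12 reads and the leaf values for 454, 364 and 341 reads. The petiole values were all below the leaf values, and the means differed 48.1-fold. bra-miR391-5p was listed at 0 in all 3 petiole libraries and had 86.1, 85.5 and 82.6 in the leaf libraries, which stood for 83, 82 and 78 reads. No fold is given for bra-miR391-5p, because low values are mostly missing from the table and a 0 is not a count of 0 reads. At the ratio of 5p to 3p found in leaf, the petiole libraries would have held 1.05 to 2.52 reads of bra-miR391-5p. Values under 3 reads were listed 14 to 27 times per library, out of 678 to 792 listed values. Whether bra-miR391-5p was reduced more than its partner strand was therefore not detectable at this depth.

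The rare miR390 forms were near the lower end of the table. gma-miR390b-5p had 14.2, 16.3 and 9.04 normalized counts in petiole and was listed at 0 in every leaf library. aly-miR390b-3p_R+2_2ss5AG19CT had 6.62, 12.5 and 11.8 in petiole and was also listed at 0 in every leaf library. rco-miR390a_R+2 was listed at 0 in petiole replicate 1, had 10.6 and 10.9 in the other petiole libraries and was listed at 0 throughout leaf. Taken in the proportion to their main strand that they had in petiole, the leaf libraries would have held 3.41 to 3.79 reads of gma-miR390b-5p, 1.87 to 2.07 of rco-miR390a_R+2 and 1.11 to 1.25 of aly-miR390b-3p_R+2_2ss5AG19CT. At this depth it was not detectable whether these forms differed between tissues in their share of the family.

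One rare form stood against the other miR390 sequences. bna-MIR390c-p3_1ss4TC was listed at 0 in petiole replicate 1 and had 4.80 and 8.14 in the other petiole libraries, against 12.4, 18.8 and 7.41 in leaf. The tissues overlapped, and the leaf values stood for 12, 18 and 7 reads. Together the 4 rare forms made up 0.107% to 0.232% of the miR390 sum in petiole and 0.158% to 0.380% in leaf, so both sums were set by the main forms.

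Of the 8 sequences, 7 passed the filter of a mean normalized count of at least 5 over the 6 libraries, and rco-miR390a_R+2 did not. With limma across all 601 tested sequences, 6 of the 7 were called at a Benjamini-Hochberg adjusted p under 0.05, against 49.6% of all tested sequences. These were 4 miR390 sequences higher in petiole (21.3% of all tested) and both miR391 sequences lower (28.3% of all tested). Of the 4, gma-miR390b-5p and aly-miR390b-3p_R+2_2ss5AG19CT, passed the filter through petiole alone and could not have come out lower, and bra-miR391-5p passed through leaf alone and could not have come out higher. The same 6 had no overlap between tissues, against 59.7% of all tested sequences, 4 of them higher in petiole (28.5% of all tested) and 2 lower (31.3% of all tested). Since the families were picked with this contrast known, nothing is read from these counts.

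**Figure D2:**
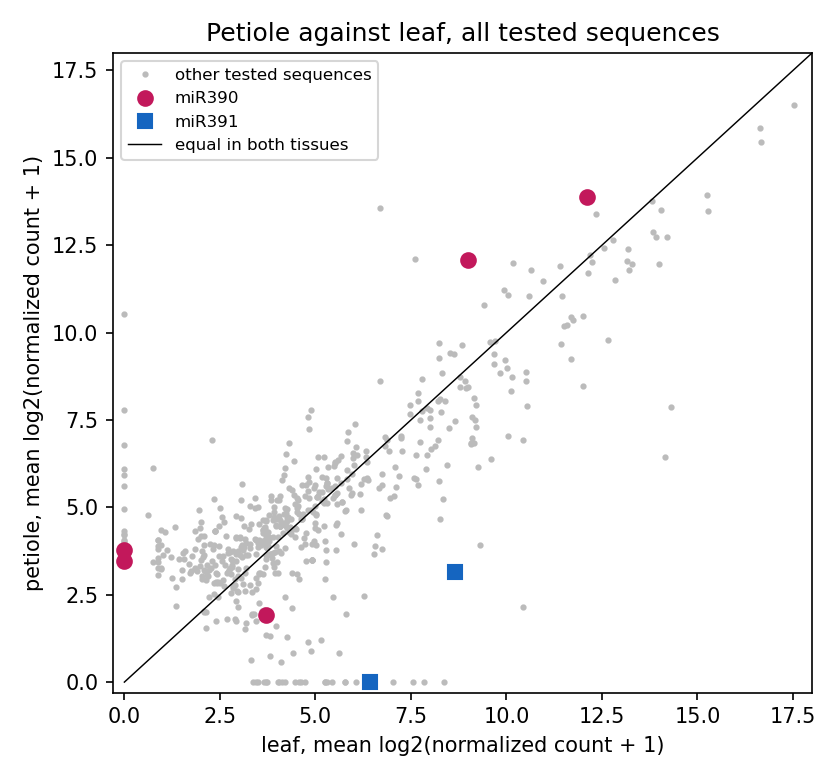
Mean log2(normalized count + 1) in petiole on the vertical axis against that in leaf on the horizontal axis, with 1 point for each of the 601 tested sequences and a line where both are equal. The 2 main miR390 forms lie above the line at high abundance, both miR391 forms lie below it, and bna-MIR390c-p3_1ss4TC lies below it near the bottom left.

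The scale between the tissues bears on the size of these differences. The summed count of all sequences was 436475 ± 10506 in petiole and 789728 ± 15787 in leaf (SD, n = 3 each), 1.81 times higher in leaf, and how the authors set the scaling is not described in the labels or the header. The log2 difference of the miR390 sum was 1.99 on the deposited scale, where the median over all tested sequences was 0.18. With equal totals it was 2.85 against a median of 0.97, and after quantile normalization 2.74 against a median of 0.19. For bra-miR391-3p the log2 difference was -5.49 on the deposited scale and -4.68 with equal totals. Over the whole table higher calls made up 43.0% of all calls on the deposited scale and 75.0% with equal totals.

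The balance of the strands does not depend on a scaling factor per library, since both strands are read in the same library; quantile normalization, which sets values by rank, does move it. In miR390 the 5p strand made up 77.6%, 78.4% and 77.6% of the sum in petiole, against 89.1%, 89.4% and 89.3% in leaf. There were 3.46 to 3.64 counts of 5p for each count of 3p in the petiole libraries, against 8.21 to 8.39 in the leaf libraries. The petiole shares lay below all leaf shares, by more than the SD of 0.49 percentage points in petiole and 0.12 in leaf. In miR391 the order of the strands was the other way round, with 4.37 to 5.47 counts of 3p for each count of 5p in the leaf libraries. The 5p strand of miR391 made up 15.5%, 18.4% and 18.6% of its sum in leaf, while in petiole it was listed at 0 beside 27.0 reads of 3p in all.

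**Figure D3:**
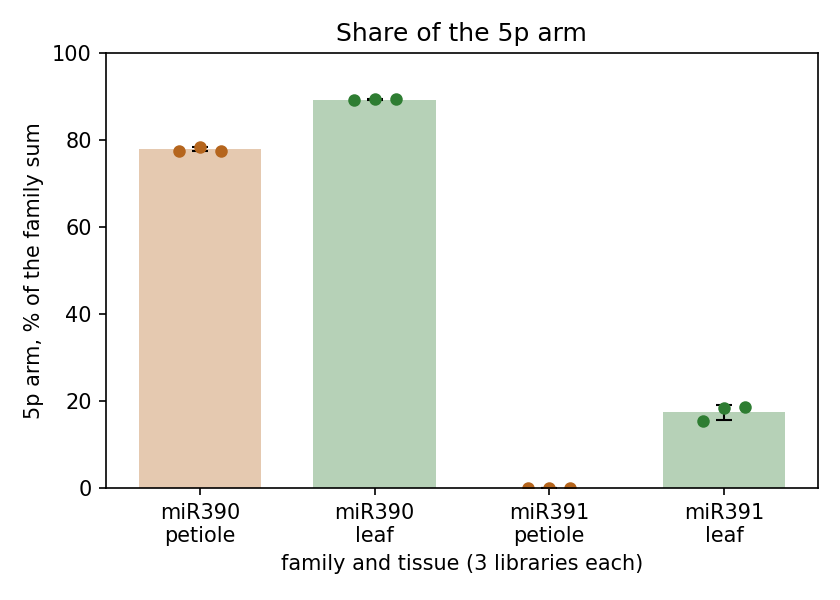
Share of the 5p strand in the summed count of each family, in percent, with bars for the mean, error bars for the SD and 1 point for each of the 3 libraries. miR390 is mostly 5p in both tissues, less so in petiole, and miR391 is mostly 3p in leaf, with no 5p listed in petiole.

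A lower ratio of 5p to 3p in petiole was not particular to miR390. A set of 14 miRNAs had a 5p and a 3p form of the same name with a mean count of at least 5 each, and in 11 of them the ratio was lower in petiole. The 11 include miR390 itself, miR391, and both ath-miR396a and bra-miR396. The median difference over the 14, on the log2 scale with 1 added to each count, was -0.93. The difference was -1.27 for miR390, the fifth lowest of the 14, and -0.93 for miR391, where the 0 of the 5p form entered as the added 1. Whether the miR391 ratio was lower in petiole was therefore not detectable at this depth. In leaf 7 of the 14 had more 3p than 5p by the mean, miR391 among them. The 3 with a higher ratio in petiole, bra-miR162, bra-miR403 and bra-miR164b, were all among these 7. So were bra-miR158, bra-miR172d and bra-miR319, where the ratio was lower in petiole. These pairs share libraries and are a description.

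**Figure D4:**
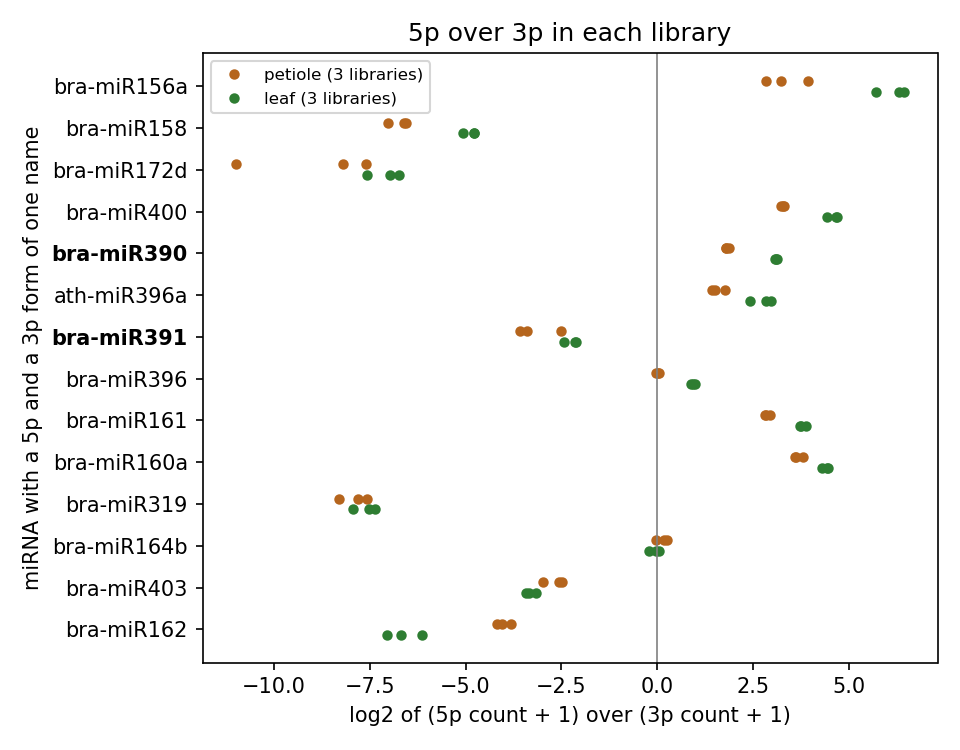
Ratio of 5p to 3p counts on a log2 scale, with 1 added to each count, for the 14 miRNAs that have both forms under 1 name, with 3 points per tissue, 1 for each library. The petiole points of miR390 lie left of its leaf points, as they do for most of the miRNAs shown.

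Reads of near-identical sequences may be divided between entries, so the table was searched for relatives under other names. No such sequence lay within an edit distance of 4 of bra-miR391-5p, the nearest being at 8. One lay that near to bra-miR390-5p, the predicted miRNA PC-5p-167436_25, shown for comparison with the main form.
PC-5p-167436_25: aAACTCAGgatggacagcgcc
It differs from bra-miR390-5p by G3A, G11T and T15C. Its bases 1 to 19 are also the exact reverse complement of bases 1 to 19 of bra-miR390-3p. It had 4.73, 7.67 and 9.95 normalized counts in petiole, against 6.22, 0 and 0 as listed in leaf, and the tissues overlapped. Its level was far below that of bra-miR390-5p in every library.

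Sequences whose profile over the 6 libraries was most like that of a main 5p form were sought among the 183 sequences of other names with a mean count of at least 50. Likeness was the Euclidean distance between log2(value + 1) profiles, each centred on its mean. Nearest to bra-miR390-5p were bra-miR172b-5p (distance 0.39), bra-miR398-5p_1ss8CT (0.47) and bra-MIR5726-p5 (0.56). bra-miR172b-5p averaged 4101 ± 373 in petiole and 1149 ± 129 in leaf (SD, n = 3 each). For bra-miR391-5p the nearest were bra-MIR167d-p3 (0.18), bra-MIR5723-p3 (0.76) and ath-miR827_2ss20CT21TA (1.31), but with bra-miR391-5p listed at 0 throughout petiole these distances follow the added 1 and would shift with another constant. bra-MIR5723-p3 was likewise listed at 0 in all petiole libraries and averaged 129 ± 11.1 in leaf. With 2 tissues, such likeness mostly reflects the size of the tissue difference.

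Other miRNA families around the tasiRNA pathway are read against the shares over all 601 tested sequences, of which 21.3% were called higher in petiole and 28.3% lower on the deposited scale. With equal totals these shares were 53.4% higher and 17.8% lower, and after quantile normalization 23.0% higher and 24.1% lower. The lists were chosen with earlier results of these data known, and forms of the same family are not independent. Their calls and p-values are therefore descriptions. A form that passed the filter through 1 tissue alone could be called only toward that tissue. The lists were taken by family name and hold forms of either strand. A target named for a family is therefore not claimed for each of its forms. The families miR160 and miR167 target auxin response factors directly. Among their forms, 1 of 18 tested was called higher and 14 lower with limma (adjusted p under 0.05, over all 601). With equal totals this became 3 higher and 9 lower, and after quantile normalization 2 and 11. The most abundant by the mean over all 6 libraries was bra-MIR167d-p3, the 3p side of a miR167 precursor. It averaged 235 ± 13.5 in petiole and 20141 ± 1476 in leaf (SD, n = 3 each). Its log2 difference was -6.41, with a limma adjusted p of 1.7e-08. A choice by that mean can favour a form high in 1 tissue. In miR393, which targets auxin receptors, 0 of 9 were called higher and 6 lower, against 1 and 3 with equal totals and 1 and 6 after quantile normalization. Its main form ath-miR393a-5p averaged 1325 ± 292 in petiole and 3495 ± 819 in leaf (SD, n = 3 each), a log2 difference of -1.39 that became -0.54 with equal totals, where it did not pass, and -0.97 after quantile normalization, where it did.

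Other triggers of phased siRNAs (miR173, miR828, miR161 and miR400) gave 1 higher and 3 lower calls of 6 tested, 2 and 2 with equal totals and 1 and 3 after quantile normalization. bra-miR400-5p averaged 395 ± 62.0 in petiole and 1480 ± 187 in leaf (SD, n = 3 each), and its log2 difference of -1.91 passed (limma adjusted p of 4.2e-05), as it did on the other scales. In miR165 and miR166, which target class III homeodomain-leucine zipper genes of leaf polarity, 3 of 14 were called higher and 8 lower. The counts were 7 higher and 2 lower with equal totals, near the shares over all tested sequences on that scale, and 4 and 3 after quantile normalization. ath-miR166a-3p averaged 6831 ± 296 in petiole and 15367 ± 1359 in leaf (SD, n = 3 each), a log2 difference of -1.17 that became -0.31 with equal totals and -0.32 after quantile normalization, where it did not pass. Among families that target DCL1, AGO1 and AGO2 (miR162, miR168 and miR403) 2 of 15 were called higher and 4 lower, against 10 and 2 with equal totals and 5 and 4 after quantile normalization. Their most abundant form, bra-miR168b-5p_1ss21CA, averaged 14018 ± 372 in petiole and 14469 ± 1028 in leaf (SD, n = 3 each), and it did not pass on the deposited scale while it passed as higher on the other scales, with log2 differences of 0.81 (equal totals) and 0.63 (quantiles). The median log2 difference on the deposited scale was -1.88 in the list of miR160 and miR167, -0.97 in miR393, -0.55 in the list of other triggers, -0.49 in miR165 and miR166 and -0.04 in the last list, against 0.18 over all tested sequences. The targets of these miRNAs and the tasiRNAs themselves were not measured here.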

How the data were processed

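Small RNA libraries (TruSeq kit, HiSeq instrument) were filtered with ACGT101-miR to remove adapter dimers, junk, low-complexity reads, repeats and common RNA families, per the labels' protocols. The aligner and genome build, and how values were scaled, are not given there. The deposited signal values are normalized counts scaled by the authors, per the file headers. Of 1069 entries, 58 repeated a sequence with the same values and were merged. Low values lay on a step of 1.04 to 1.06 in leaf and 0.904 to 0.959 in petiole libraries, taken as 1 read. This put the totals at 457195 to 474192 reads in petiole and 729593 to 771262 in leaf. Of values under 60 reads, 71.5% to 76.9% were whole within 0.02 reads, too few for a count test.

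The tissues were compared by limma (version 3.58.1 in R 4.3.3, mean-variance trend) on log2 values of count + 1 for sequences with a mean of at least 5. The added 1 understates differences of low values. The labels do not tie replicates to separate plants, hence p-values and SEs measure only the spread between libraries, which may be technical. Replicates of a tissue differed by more than sampling of reads gives (chi-square 3.43 to 8.45 times its degrees of freedom). Duplexes were predicted with RNAduplex 2.7.2. Strands were assigned by likeness to the main forms. The fit was tested on simulated data. The members and lists were chosen with earlier results of these data known. All 8 sequences are described. Beyond them, the 3 sequences nearest to each main 5p form, the most abundant tested form of each list and any other sequence within an edit distance of 4 are named. Alternatives were other scales, added constants, filters, no trend, a replicate block and leaving out each library.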

Additional observations from a re-analysis of the deposited data

How the results depend on the processing

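No direction of the 8 sequences or of the 2 sums reversed under any alternative run; as the families were selected on this contrast, and some forms are listed at 0 in 1 tissue, that is no sign of stability. With equal totals the miR390 sum averaged 27442 in petiole and 3812 in leaf (log2 difference 2.85), and the miR391 sum 11.8 in petiole and 379 in leaf. After quantile normalization the miR390 sum averaged 29743 in petiole and 4444 in leaf (log2 difference 2.74), the miR391 sum averaged 396 in leaf, and the 5p share of miR390 was 82.4% in petiole and 91.3% in leaf. Quantile normalization changes ratios within a library. With the main forms alone, an alternative chosen after seeing the data, the 5p share in leaf was 89.5%. On the 186 sequences with a mean of at least 50, 156 were called (83.9%), among them all 3 miR390 or miR391 sequences that were tested. Leaving out each library in turn gave 244 to 279 calls over the table (40.5% to 46.0% of the tested sequences) and 4 to 6 members called. The lowest count, 4 of 5 tested, came without petiole replicate 2, where rare miR390 forms no longer passed the filter on the mean. Across these fits the miR390 log2 difference ranged from 1.96 to 2.02, and that of bna-MIR390c-p3_1ss4TC from -2.44 to -0.85. Libraries of equal replicate number shared little deviation (correlations of 0.07, 0.01 and 0.01). With 3 libraries per tissue this cannot tell whether they came from the same plants. With the replicate block 280 sequences were called (46.6% of those tested), 6 of them members out of 7 tested. Added constants moved the log2 differences of sequences listed at 0 in 1 tissue, such as gma-miR390b-5p with 4.73 for an added 0.5 and 1.84 for an added 5. Depth limits the rare forms and miR391 in petiole, which rest on at most 18 reads per library.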
